A study of Mus musculus with 6 samples.

Results

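The slow and cardiac myosin heavy chain genes Myh6, Myh7 and Myh7b, with the microRNAs in their introns, were followed through a chromatin immunoprecipitation sequencing (ChIP-seq) experiment on Sox6 and RNA polymerase II (Pol II) in mouse fetal myotubes. They were chosen as 3 of 22921 RefSeq genes by gene family, and the 3 microRNAs by the gene that hosts each. All 6 libraries came from 1 kind of cell: primary myoblasts from the limbs of wild type C57BL/6 fetuses at E18.5, passaged 17 times and differentiated for 48 h in medium with 2% horse serum. There were 2 Sox6 libraries, 2 Pol II libraries and 2 libraries of input DNA, which is the sheared chromatin before antibody was added and serves as the background. No library came from cells without Sox6, so each comparison set a ChIP against input and no comparison showed what the genes do when Sox6 is lost. A myotube culture has no nerve and is not a fibre in a muscle. The Sox6 antibody was a rabbit polyclonal.

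Myosin heavy chain (MyHC) is the motor protein of the thick filament, and the isoform a muscle cell uses sets how fast it contracts. Myh7 encodes MyHC-β, the slow isoform of skeletal muscle that is also used by the fetal heart. Myh6 encodes MyHC-α, the isoform of the adult mouse heart, and Myh7b encodes a related, ancient slow-type chain. Each gene carries a microRNA in an intron, miR-208a in Myh6, miR-208b in Myh7 and miR-499 in Myh7b, and these microRNAs are known to act on the Sox6 transcript. Sox6 is an HMG box transcription factor known to hold slow fibre genes down in fast muscle. Pol II is the enzyme that transcribes them, and the 4H8 antibody used here recognises the repeats of its tail.

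In NCBI Build 37 (mm9), Myh6 and Myh7 lie head to tail on the minus strand of chromosome 14. Myh7 comes first (chr14:55589525-55613471, 23947 bp, 41 exons), followed by Myh6 (chr14:55560758-55585444, 24687 bp, 39 exons). The space between them was taken up to the longest annotated extent of the Myh6 gene, which begins upstream of the model used here, and is 3760 bp long (chr14:55585765-55589524). Myh7b lies on the plus strand of chromosome 2 (chr2:155436948-155460043, 23096 bp, 42 exons), and its last bases overlap those of Trpc4ap on the other strand. The hairpin of miR-208a is in intron 29 of Myh6 (chr14:55567897-55567979), that of miR-208b in intron 31 of Myh7 (chr14:55594537-55594613) and that of miR-499 in intron 19 of Myh7b (chr2:155448616-155448694). The mature strands, from RefSeq (GRCm38.p6), are shown because the seed, bases 2 to 8 in capitals, is what a microRNA reads on its targets. All 3 hairpins were identical in Build 37.

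miR-208a-3p: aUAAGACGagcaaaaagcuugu
miR-208b-3p: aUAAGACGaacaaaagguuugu
miR-499-5p: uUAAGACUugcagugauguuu

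The strands of miR-208a and miR-208b had the same seed and differed at 3 of 22 bases. The seed of miR-499-5p had the same first 6 bases, UAAGAC, and a different last base.

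Sox6 peaks were called by the authors in each replicate, and peaks common to both replicates were listed separately. Of the 1066 common peaks, 4 lay within 50 kb of a member, and all 4 also lay within 20 kb. One was inside Myh6, in intron 34 near the 3′ end of the gene (chr14:55564942-55565081, 20433 bp after the start site). A pair lay upstream of Myh7, a proximal peak 150 bp before the start site (chr14:55613562-55613681) and a distal peak 2810 bp before it (chr14:55615862-55616701). The fourth lay 4617 bp before the Myh7b start site (chr2:155432182-155432481). No Sox6 peak of any list lay in the space between Myh7 and Myh6, and none lay at the Myh6 start site. Replicate 1 alone had 2 more, 10080 bp upstream of Myh7 and 623 bp into Myh7b, in intron 2.

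The sequence of each common peak is shown because these are the bases over which Sox6 reads accumulated. Each is 201 bases around the centre of the peak, read 5′ to 3′ along the strand of its gene. Capitals mark letters searched on both strands: ACAAAG and ACAATG for Sox proteins, CAGCTG and CAGGTG for E-boxes, GGAATG for Tead and CCACA for Runx.

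Myh6 internal peak (chr14:55564911-55565111, minus strand): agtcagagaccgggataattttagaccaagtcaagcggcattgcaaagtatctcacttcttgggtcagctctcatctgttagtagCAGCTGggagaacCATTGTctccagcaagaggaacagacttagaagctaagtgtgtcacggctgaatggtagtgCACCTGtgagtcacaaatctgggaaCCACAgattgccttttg
Myh7 proximal peak (chr14:55613521-55613721, minus strand): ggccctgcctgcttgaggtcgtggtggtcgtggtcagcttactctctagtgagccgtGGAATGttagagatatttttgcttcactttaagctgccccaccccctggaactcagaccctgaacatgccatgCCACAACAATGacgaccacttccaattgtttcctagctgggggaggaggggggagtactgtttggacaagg
Myh7 distal peak (chr14:55616181-55616381, minus strand): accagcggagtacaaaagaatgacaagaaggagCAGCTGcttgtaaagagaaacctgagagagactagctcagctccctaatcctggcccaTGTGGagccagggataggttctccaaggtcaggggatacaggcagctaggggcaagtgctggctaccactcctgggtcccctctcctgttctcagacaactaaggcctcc
Myh7b upstream peak (chr2:155432231-155432431, plus strand): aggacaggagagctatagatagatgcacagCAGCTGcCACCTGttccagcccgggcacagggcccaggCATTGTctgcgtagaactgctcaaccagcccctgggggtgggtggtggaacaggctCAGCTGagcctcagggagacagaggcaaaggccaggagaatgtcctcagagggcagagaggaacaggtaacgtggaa

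Sox letters stood in 3 of these 4 windows, against 58.4% of all 1066 common peaks and 26.4% of 2132 windows of the same length 2 kb to either side of them. They lay 1 bp from the centre of the Myh6 peak, 112 bp before the Myh7 start site in the proximal peak and 30 bp from the centre of the Myh7b peak. In the proximal Myh7 peak the Sox letters directly followed Runx letters, and Tead letters stood 190 bp before the start site. E-box letters stood in 3 of the 4 windows, against 66.5% of all common peaks and 22.2% of the flanking windows. Tead letters stood in 1 of 4 windows, against 28.4% of common peaks and 9.85% of flanking windows. Runx letters stood in 3 of 4, against 68.9% and 45.9%.

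The deposited interval of the distal Myh7 peak was 840 bp wide, far wider than its central window, and held 3 Sox, 2 E-box and 5 Runx matches. Its Sox letters stood in 2 places, shown here with 50 bases to either side. The first place held ACAAAG and, 5 bases on, ACAATG.

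Myh7 distal peak, 2447 bp before the start site (chr14:55615868-55615968, minus strand): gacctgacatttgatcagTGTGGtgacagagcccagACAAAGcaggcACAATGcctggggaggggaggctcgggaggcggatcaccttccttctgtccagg
Myh7 distal peak, 2922 bp before the start site (chr14:55616343-55616443, minus strand): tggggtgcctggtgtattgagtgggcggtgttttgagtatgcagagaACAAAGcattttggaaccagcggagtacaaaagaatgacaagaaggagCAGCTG

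Depth set what could be seen. The Sox6 libraries held 2985437 and 1468604 uniquely mapped reads, the Pol II libraries 1538757 and 2762155, and the inputs 21973495 and 24249850. A value below is a number of reads (5′ ends) in a region, or reads per 1000000 mapped reads of the library (RPM), or RPM per kb of region (RPKM). Ratios to the input of the same number carry an exact 95% interval (conditional binomial) that covers counting error only. A count of 0 allows up to 3 reads, which is 1.0 and 2.04 RPM in Sox6 replicates 1 and 2, and 1.95 and 1.09 RPM in Pol II replicates 1 and 2. Of the 36-base words of Myh6 and Myh7, 90.4% and 88.6% occurred in 1 place in the genome, and 7.97% of those of Myh6 also occurred in Myh7, where the alignment kept unique reads. Reads were 36 bases long in Input replicate 1 and 39 bases in the other libraries, so that these shares are a guide and not a count of lost reads. In Myh7b 99.3% occurred in 1 place.

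Sox6 reads stood far above input at each of the 4 common peaks in both replicates. The distal Myh7 peak was the highest of them. Its 450 bp window contained 37 and 29 reads in Sox6 replicates 1 and 2, against 8 and 7 in the much deeper inputs. These are 12.4 and 19.7 RPM against 0.364 and 0.289 RPM. The ratios were 34 (15.6 to 84.6) and 68.4 (29.3 to 185.0).

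In Sox6 the Myh7b upstream peak had 24 and 27 reads, with 11 and 13 in input, ratios of 16.1 (7.57 to 36.3) and 34.3 (17.1 to 72.4). The Myh6 internal peak held 28 and 21 against 13 and 12, ratios of 15.9 (7.95 to 33.3) and 28.9 (13.6 to 64.4). The proximal Myh7 peak held 12 and 8 against 4 and 7, ratios of 22.1 (6.69 to 93.9) and 18.9 (5.98 to 61.1). Every Sox6 library stood above both inputs at every one of these 4 peaks.

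Within Myh7, the distal peak held 3.08 times (1.57 to 6.49) as many Sox6 reads as the proximal peak in replicate 1 and 3.62 times (1.62 to 9.18) as many in replicate 2. Input at the same windows gave 2.0 (0.536 to 9.08) and 1.0 (0.299 to 3.34). At the Myh6 peak the input itself was raised, at 2.39 (1.26 to 4.16) and 1.99 (1.02 to 3.52) times its own mean density over the gene body. Reads of the plus strand lay to the left of those of the minus strand at all 4 peaks in both replicates, 78.0 to 292.0 bp apart by their medians. The peak caller picks sites by this switch of strands, so the order is a description only.

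**Figure D1:**
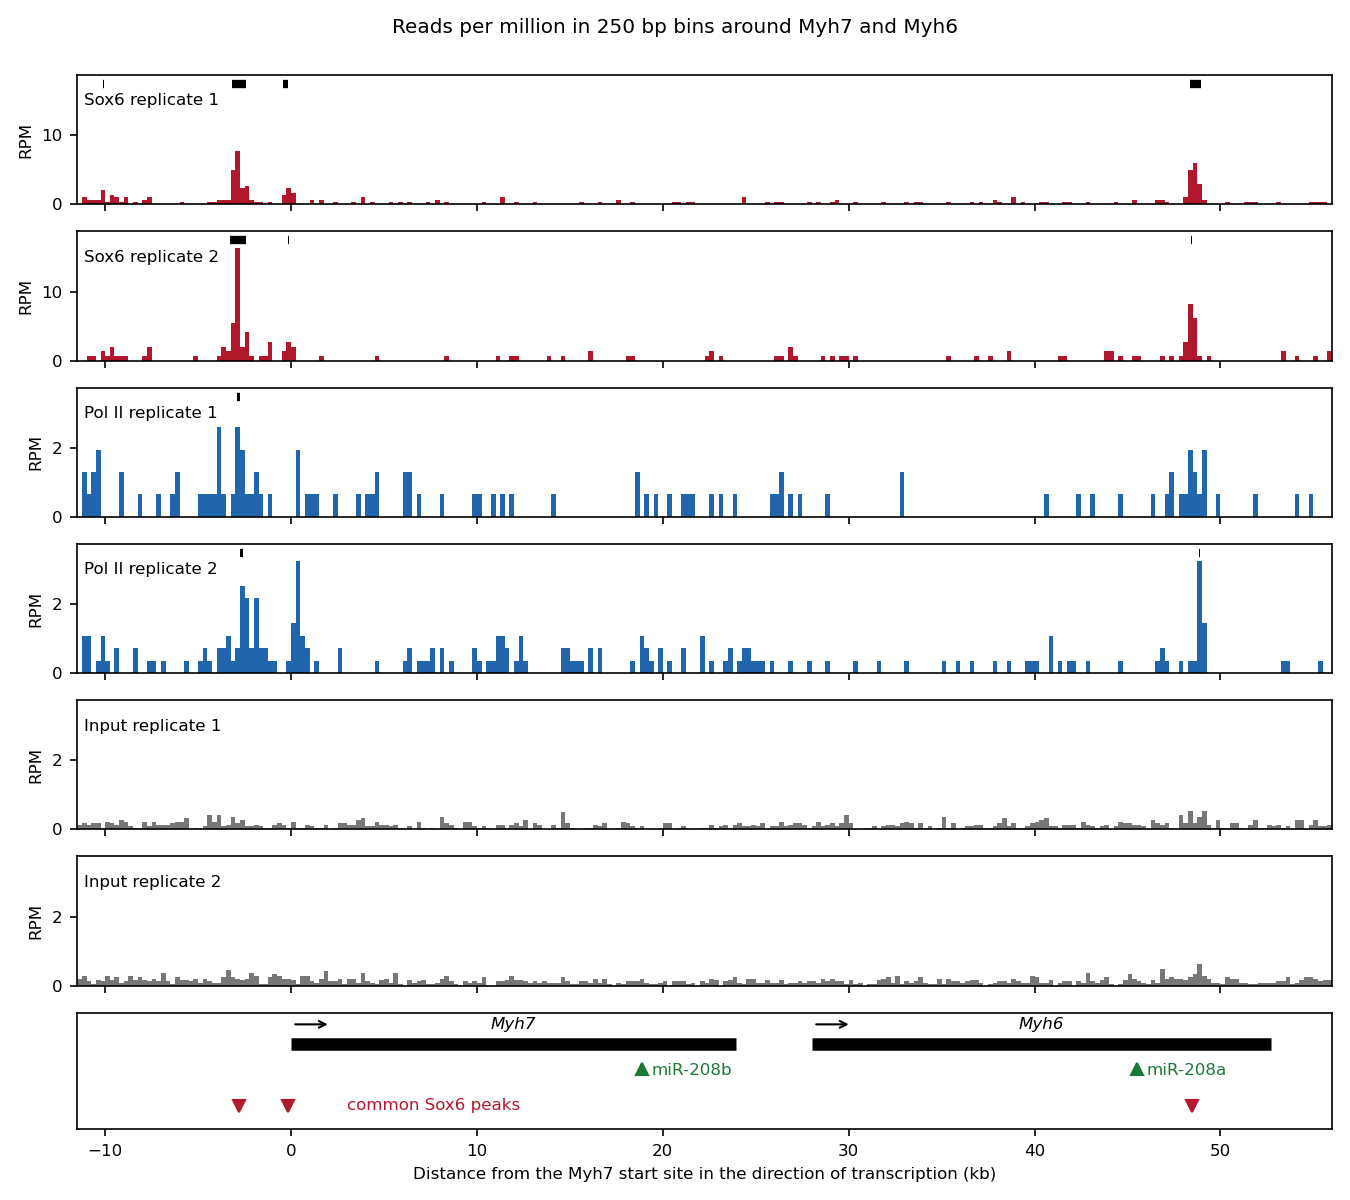
RPM in 250 bp bins along Myh7 and Myh6, plotted by distance in kb from the Myh7 start site in the direction of transcription, with 1 panel a library. Black bars mark the authors' peaks of that library, triangles the hairpins and the common Sox6 peaks. Sox6 reads stand at 2810 and 150 bp before the Myh7 start site and inside the 3′ part of Myh6, and the start of Myh6 has 2 Sox6 reads or fewer and 1 Pol II read or fewer in each library.

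Because the peak caller saw these reads, the ratios at peaks are a description and not an independent result. For scale, in a limma fit over all 1066 common peaks, 96.7% were higher in Sox6 than in input, and the median log2 ratio was 3.52. The log2 ratios were 5.52 ± 0.45 (SE, 2 libraries against 2) at the distal Myh7 peak, 4.52 ± 0.45 at Myh7b, 4.39 ± 0.45 in Myh6 and 4.29 ± 0.66 at the proximal Myh7 peak. They ranked 21, 128, 155 and 184 from the top among the 1066. The limma fit takes such an SE mostly from the spread shared over all features of like read level.

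The replicate 1 peak 10080 bp upstream of Myh7 contained 8 and 2 reads in Sox6 replicates 1 and 2, with 6 and 5 in input. The replicate 2 ratio, which did not enter that call, was 6.60 (0.629 to 40.3). The replicate 1 peak in intron 2 of Myh7b had 4 reads in each Sox6 library against 8 and 12 input reads, and the replicate 2 ratio was 5.50 (1.29 to 18.2). The first of these intervals includes 1 and the second does not. The 4 Sox6 reads behind the second stood at 3 distinct positions, and its interval with repeated positions counted once was not computed. Replicate 1, which made both calls, gave 9.81 (2.99 to 34.3) upstream of Myh7. In Myh7b it gave 3.68 (0.811 to 13.7), an interval that includes 1.

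Start sites and gene bodies were tested over all genes, wherever the peaks lay. Among 18762 start sites tested (500 bp to either side), 2.23% had more Sox6 than input reads by limma at an adjusted p of 0.05, and 2 of the 3 members did. At the Myh7 start site, whose window includes the proximal peak, Sox6 had 16 and 9 reads and input 10 and 15, a log2 ratio of 3.44 ± 0.46 (limma, adjusted p = 1.34e-10). At the Myh7b start site there were 7 and 6 against 16 and 13, a log2 ratio of 2.37 ± 0.52 (limma, adjusted p = 0.0013). At the Myh6 start site there were 2 and 0 against 10 and 10, a log2 ratio of 0.23 ± 0.97 (limma, adjusted p = 0.947). The Myh6 value was −0.42 without Sox6 replicate 1 and 0.88 without Sox6 replicate 2. It passed with 2 reads added (1.38, limma, adjusted p = 0.0473), an addition that weighs more in the shallower ChIP libraries. Under that addition 10371 of 18762 start sites were called.

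Sox6 at Myh7 and Myh7b starts was above both inputs in each replicate, while at Myh6 it was within 3 reads. How many of all start sites showed such a separation was not counted, and the median log2 ratio over all of them was 0.64. Both calls, for Myh7 and Myh7b, were lost when an input library was left out, as were nearly all Sox6 calls at start sites over all genes. For Myh7 leaving out Input replicate 1 gave an adjusted p of 0.996 and leaving out Input replicate 2 gave 0.108. For Myh7b the same gave 0.996 and 0.67. The log2 ratios then lay between 2.15 and 3.65. With an addition equal in RPM in every library the calls were lost as well (limma, adjusted p = 0.068 for Myh7 and 0.0835 for Myh7b). Under that addition 0 of 18762 start sites were called.

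Over gene bodies, 5.37% of 20912 genes had more Sox6 than input reads. Of the members only Myh6 did, with 83 and 49 reads in Sox6, 298 and 331 in input and a log2 ratio of 1.17 ± 0.16 (limma, adjusted p = 0.0137). Its reads were gathered at the 3′ end: the ninth of 10 equal parts of the gene held 47 of the 83 reads in replicate 1 and 28 of the 49 in replicate 2. With 1 kb to either side of the common peak left out, the ratios were 1.08 (0.737 to 1.53) and 1.26 (0.768 to 1.97), the log2 ratio was 0.24 and the adjusted p was 0.448. With an addition equal in RPM the adjusted p over the whole body was 0.0717, and 0 of 20912 gene bodies were called.

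The Myh7 body had 37 and 19 Sox6 reads against 208 and 288 (log2 ratio 0.28 ± 0.21, limma, adjusted p = 0.404). Myh7b held 54 and 28 against 254 and 320 (0.61 ± 0.18, adjusted p = 0.0685). The Myh7b value passed the threshold without Sox6 replicate 1 (log2 ratio 0.65) or without Sox6 replicate 2 (0.56). Both settings called far more gene bodies than the main fit. With the replicate number as a block the Myh7b value passed (limma, adjusted p = 0.0245), where 2927 of 20912 gene bodies were called. It also passed with libraries scaled to reads outside peaks (0.0499, 1689 of 20912 bodies called) and with 2 reads added (0.0436, 2490 of 20912). With no filter it passed as well (0.0493, 2261 of 22921). It was not called without Input replicate 1 (log2 ratio 0.51) or 2 (0.70). It moved away from the threshold with an addition equal in RPM (adjusted p = 0.108) and without the first 1 kb of the body (0.162).

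Over the gene bodies Pol II was highest on Myh7b, lower on Myh7 and at the input level on Myh6. Myh7b held 85 and 151 Pol II reads, which is 2.39 and 2.37 RPKM against 0.50 and 0.571 RPKM in the inputs. Myh7 held 35 and 81 reads, 0.95 and 1.22 RPKM against 0.395 and 0.496 RPKM. Myh6 held 24 and 40 reads, 0.632 and 0.587 RPKM against 0.549 and 0.553 RPKM. A few nuclei with much Pol II and many with little cannot be told apart in such bulk libraries.

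Pol II values of the 3 genes did not overlap. Myh7b had 2.52 times (1.68 to 3.85) the Pol II density of Myh7 in replicate 1 and 1.93 times (1.47 to 2.56) in replicate 2. Myh7 had 1.5 times (0.869 to 2.64) and 2.09 times (1.41 to 3.13) that of Myh6, so that in replicate 1 this last step was within counting error. Over all genes Pol II was called higher than input on 39.0% of 20915 gene bodies and lower on 24.4%. Myh7b (log2 ratio 2.16 ± 0.13, limma, adjusted p = 1.01e-06, rank 1869) and Myh7 (1.30 ± 0.19, adjusted p = 0.000267, rank 4721) were among the higher ones.

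Myh6 was not called (0.17 ± 0.16, limma, adjusted p = 0.409), and its log2 ratio was that of the median gene, 0.17. Scaling the libraries to reads outside all peaks raised all Pol II log2 ratios by 0.49, and on that scale Myh6 was called higher than input (0.66, adjusted p = 0.00635) while remaining at the median. The ninth of 10 parts of Myh6, which contains its Sox6 peak, held more Pol II reads than any other part, 12 of 24 in replicate 1 and 15 of 40 in replicate 2. It also held the most input reads, 60 of 298 and 55 of 331. Without 1 kb to either side of that peak the log2 ratio turned to −0.47 (adjusted p = 0.0762).

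**Figure D2:**
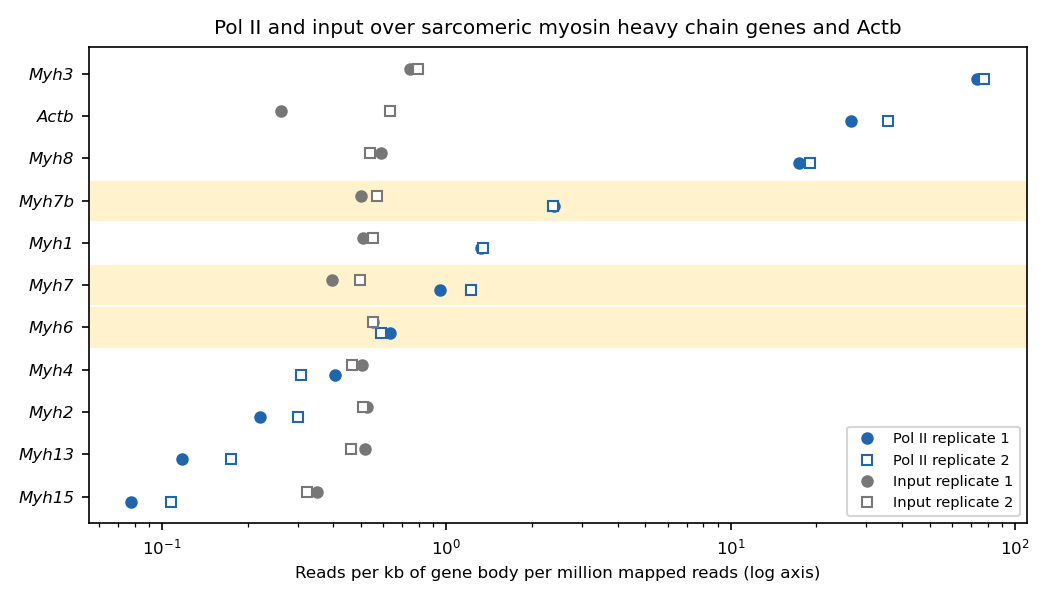
RPKM of the gene body (log axis) for Pol II and input over the 10 sarcomeric myosin heavy chain genes and Actb, each symbol 1 library. Members are shaded. Myh7b stands at 2.39 and 2.37, Myh7 at 0.95 and 1.22, and Myh6 at 0.632 and 0.587, the last beside its inputs.

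Among the 10 sarcomeric MyHC genes, Pol II was called higher than input on 5, lower on 3 and neither on 2, shares not far from the 39.0% and 24.4% over all genes. The median log2 ratio was 0.73 against 0.17 over all genes. The embryonic Myh3 (73.3 and 77.8 RPKM) and the perinatal Myh8 (17.4 and 19 RPKM) stood far above the members. The fast Myh1, MyHC-IIx, at 1.32 and 1.34 RPKM lay just above Myh7. Fast Myh4 (0.406 and 0.307 RPKM) and Myh2 (0.221 and 0.301 RPKM) were below Myh6, as were Myh13 (0.117 and 0.174 RPKM) and Myh15 (0.0780 and 0.107 RPKM). Actb, a housekeeping gene, had 26.4 and 35.8 RPKM. By rank from the top, Myh3 was 9 and Myh8 76 of the 20915 genes.

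The study took Pol II levels from reads in peak regions. A count of that kind, with the gene models and peak assignment set here and so not the study's own values, left almost nothing on the members. A Pol II peak overlapped the body of Myh7 in neither replicate. Myh7b had 1 peak with 1 read in replicate 1 (0.0281 RPKM) and 1 with 2 reads in replicate 2 (0.0314 RPKM), at different places. Myh6 had none in replicate 1 and 1 peak with 2 reads in replicate 2 (0.0293 RPKM). The peaks of Actb by the same count held 27.4 and 33.2 RPKM from 226 and 560 reads. The study reported a much lower level for this gene, so its values and these are not on the same scale.

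Along the genes, Pol II reads of Myh7b stood in every part of the body. The first 5 of 10 parts held 43 of 85 in replicate 1 and 85 of 151 in replicate 2. By single parts they were uneven: in replicate 1 the last part held the most, 17 reads, and the ninth 2. In replicate 2 the first part held the most, 24 reads. On Myh7 the first part held the most, 7 of 35 and 19 of 81 reads, that is 1.90 and 2.87 RPKM, against 0.323 and 0.758 RPKM of input. The last part of Myh7 still held 0.814 and 1.06 RPKM, above its input of 0.285 and 0.465 RPKM. On Myh6 the first 5 parts together held 3 of 24 and 12 of 40 reads.

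At start sites, 47.2% of 18669 tested had more Pol II than input. Myh7 had 3 and 14 Pol II reads against 10 and 15 (log2 ratio 2.64 ± 0.52, limma, adjusted p = 1.43e-06). Myh7b had 6 and 7 against 16 and 13 (2.39 ± 0.50, adjusted p = 6.62e-06). Myh6 had 0 and 1 against 10 and 10 (−0.11 ± 0.91, adjusted p = 0.95). With 2 reads added the Myh6 value changed sign and passed (1.19, limma, adjusted p = 0.0429), where 15571 of 18669 start sites were called higher. In the main fit Myh7 and Myh7b ranked 4549 and 5609 from the top. The 2 Pol II replicates of Myh7 were unequal, at 1.95 and 5.06 RPKM, with ratios to input of 4.28 (0.758 to 16.6) and 8.19 (3.66 to 18.2). The log2 ratio was 3.25 without PolII replicate 1 and 2.04 without PolII replicate 2, called in both.

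In the space between Myh7 and Myh6, which does not include the bases directly upstream of the Myh6 start site used here, Pol II had 6 and 10 reads and input 42 and 40. Pol II was called higher than input in 32.2% of 4818 such spaces between neighbours in the same direction. Here the log2 ratio was 1.16 ± 0.36 (limma, adjusted p = 0.034), beside 1.30 over the Myh7 body before it. The call did not hold without Input replicate 1 (adjusted p = 0.239) or 2 (0.304), with a replicate block (0.0512), without 500 bp at each end (0.0509), with repeated positions counted once (0.0552) or with an addition equal in RPM (0.0543).

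Sox6 was called higher in 0.228% of 4817 spaces. In this one it had 6 and 6 reads, ratios of 1.05 (0.365 to 2.49) and 2.48 (0.858 to 5.88), and the log2 ratio was 0.79 ± 0.46 (limma, adjusted p = 0.439). Among the alternatives run it passed only without Sox6 replicate 1 (1.30), a setting that called far more spaces than the main fit.

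At the hairpins (500 bp to either side), Pol II was called higher on 21.3% of 1222 microRNAs tested, and miR-208b was 1 of them. In its window Pol II had 3 and 7 reads, with 4 and 12 in input, a log2 ratio of 2.94 ± 0.67 (limma, adjusted p = 9.14e-05). With 250 bp to either side in place of 500 bp the adjusted p was 0.11. Leaving out Input replicate 1 gave a log2 ratio of 2.27 and leaving out Input replicate 2 one of 3.60, called in both. The miR-499 window held 1 and 2 Pol II reads against 8 and 9 (1.27 ± 0.81, adjusted p = 0.357) while its host had the most Pol II of the 3 genes. With 2 reads added that adjusted p was 0.000932, where 744 of 1222 hairpin windows were called higher. The miR-208a window held 0 and 0 Pol II reads against 12 and 16 (−1.36 ± 0.90, adjusted p = 0.395), and the ratios of 0 carry upper limits of 5.14 and 2.28. Without PolII replicate 1 the log2 value was −1.78, past the threshold. With an addition equal in RPM it was −1.51 (limma, adjusted p = 0.0177), where 324 of 1222 hairpin windows were called lower.

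Sox6 was called higher on 3.72% of 1235 hairpin windows and on none of these 3, by limma. Their unadjusted p was 0.182 for miR-208a, 0.634 for miR-208b and 0.326 for miR-499, on 2 reads or fewer in each Sox6 library, so that none passed unadjusted either. With 2 reads added, miR-208a (limma, adjusted p = 0.0376) and miR-499 (0.0317) passed, where 687 of 1235 hairpin windows were called.

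**Figure D3:**
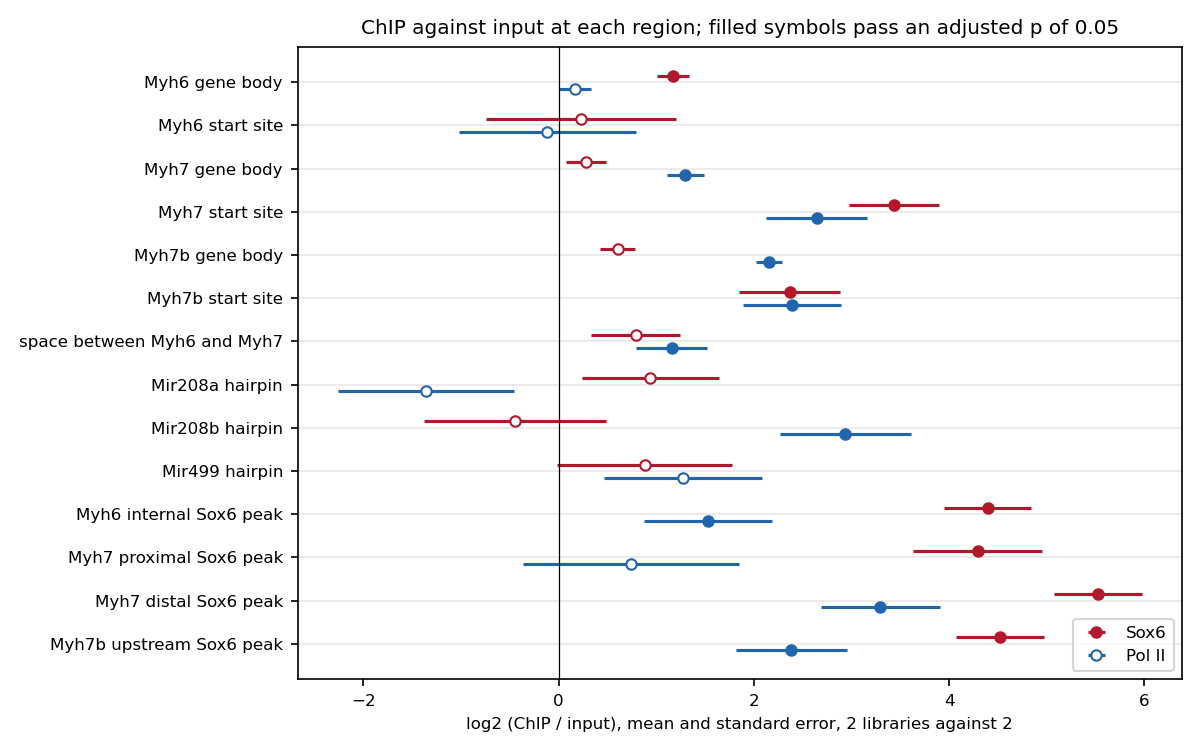
Log2 ratio of ChIP to input with its standard error (2 libraries against 2) at each region of the members, Sox6 in red and Pol II in blue. Filled symbols passed an adjusted p of 0.05 in limma. The 4 Sox6 peaks stand between 4.29 and 5.52 for Sox6, and for Pol II the members run from −1.36 at miR-208a to 3.29 at the distal Myh7 peak.

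Pol II was also read at the 4 common Sox6 peaks. Of 1060 common Sox6 peaks tested, 58.8% had more Pol II than input reads by limma. Of the members' 4 peaks 3 did, not far from that share. The median log2 ratio over the 1060 was 1.79. From the top, the distal Myh7 window ranked 141, the Myh7b window 335, the Myh6 window 609 and the proximal Myh7 window 825. The last 2 were below the median. In the distal Myh7 window Pol II had 6 and 7 reads, with 8 and 7 in input (log2 ratio 3.29 ± 0.61, adjusted p = 3.85e-07). The Myh7b upstream window held 2 and 13 against 11 and 13 (2.38 ± 0.57, adjusted p = 8.91e-05), but not past the threshold without Input replicate 1 (0.12) or 2 (0.112). Its log2 ratio was 3.18 without PolII replicate 1 and 1.59 without PolII replicate 2. The Myh6 internal window held 4 and 2 against 13 and 12 (1.53 ± 0.65, adjusted p = 0.0342), and this call ended without PolII replicate 1 (log2 ratio 0.69, adjusted p = 0.206; 2.38 without PolII replicate 2) and without Input replicate 1 (0.279) or 2 (0.333). It also ended with an addition equal in RPM (0.206), a replicate block (0.0514), repeated positions counted once (0.0615) or reads moved by 75 bp (0.06). At the proximal Myh7 peak there were 0 and 1 Pol II reads against 4 and 7 (0.74 ± 1.10, limma, adjusted p = 0.58). This window was called only with 2 reads added (0.00755), where 947 of 1060 common peaks were called higher.

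Windows of 1 kb to either side of the peak centres held more reads. Around the Myh7b peak Pol II stood at 6.80 (3.78 to 11.8) and 9.44 (6.38 to 14.0) times input. Around the distal Myh7 peak it stood at 4.91 (2.23 to 9.99) and 4.56 (2.75 to 7.39) times, and around the Myh6 peak at 3.57 (1.78 to 6.65) and 2.51 (1.34 to 4.44) times. None of these 6 intervals reached 1, and how many of all common peaks showed the same was not counted. With 500 bp to either side, 638 of 1066 common peaks had more Pol II than input by limma. Their median log2 ratio was 1.52. Around the proximal Myh7 peak the ratios were 2.14 (0.408 to 7.22) and 3.88 (2.13 to 6.80).

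Within 50 kb of the members there were 6 Pol II peaks in replicate 1 and 11 in replicate 2, and within 20 kb 4 and 6. The distal Myh7 Sox6 peak had a Pol II peak of replicate 1 at its centre and one of replicate 2 at 70 bp. The Myh7b Sox6 peak lay inside a Pol II peak of replicate 2 that was 2041 bp wide (chr2:155430651-155432691), and 360 bp from the nearest Pol II peak of replicate 1. The Myh6 Sox6 peak had one of replicate 2 at 400 bp, 41 bp wide with 2 Pol II reads against 6 in input (ratio 2.93, 0.289 to 16.4), and its nearest one of replicate 1 at 45340 bp. None of the 3 start windows held a Pol II peak in either replicate.

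The region upstream of Myh7b carried Pol II well above input. In the 2041 bp interval Pol II had 22 and 59 reads and input 48 and 51, which is 7.0 and 10.5 RPKM against 1.07 and 1.03 RPKM. The interval was drawn on replicate 2, and replicate 1, which was not used for it, gave a ratio to input of 6.54 (3.76 to 11.1). Per kb it had 1.80 times (0.707 to 5.42) the Pol II of the start window in replicate 1 and 4.13 times (1.89 to 10.7) in replicate 2. Input had 1.47 times (0.821 to 2.78) and 1.92 times (1.03 to 3.86) there.

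The GENCODE annotation used here has no gene at the centre of that interval.

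**Figure D4:**
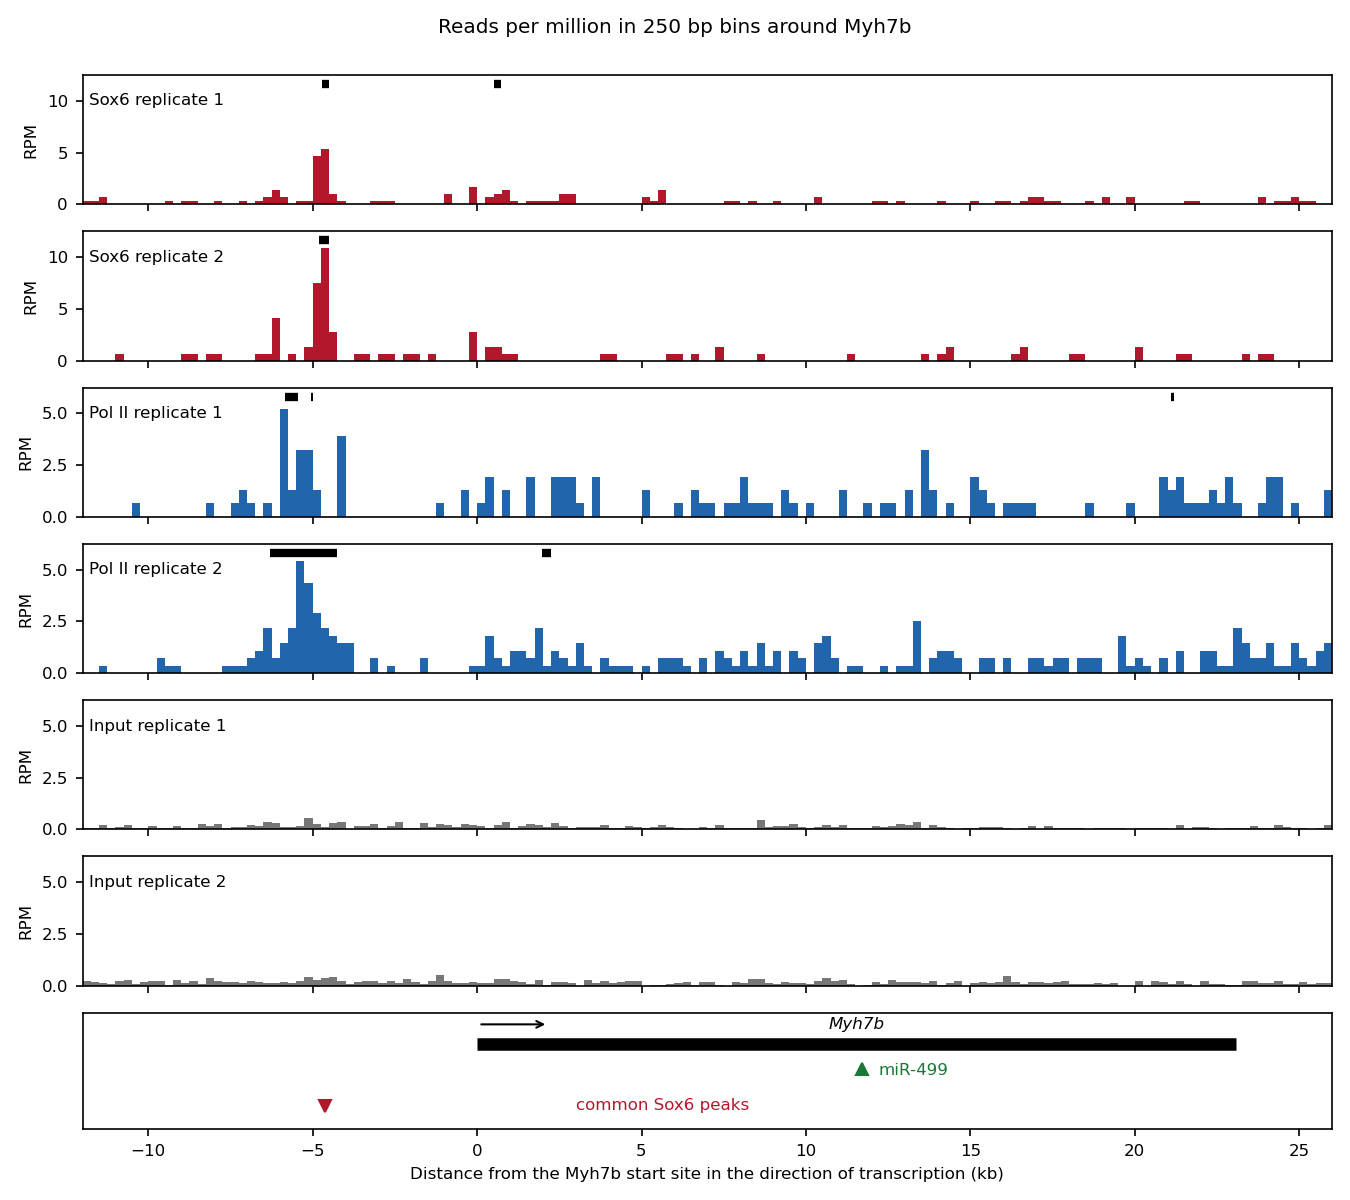
RPM in 250 bp bins around Myh7b, plotted by distance in kb from its start site in the direction of transcription, with 1 panel a library and black bars for the authors' peaks of that library. The Sox6 peak 4617 bp before the start stands at the downstream edge of a block of Pol II reads that is taller than any part of the gene body in Pol II replicate 2.

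The study followed Sox6 at these peaks by quantitative PCR, and its primers were placed in Build 37 to read the sequencing at the same points. Each pair matched 1 place. The Myh7b amplicon ended before the common peak began (chr2:155432182-155432481), though it overlapped the Sox6 peak of replicate 2 (chr2:155432152-155432451). The amplicons of Myh6 and Myh7 overlapped their common peaks. They are shown because they name the exact bases assayed, each as forward and then reverse primer.

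Myh6 amplicon (chr14:55564952-55565028), forward: gcactaccattcagccgtga
Myh6 amplicon, reverse: agcagctgggagaaccattg
Myh7 amplicon in the distal peak (chr14:55616413-55616547), forward: acaccgcccactcaatacac
Myh7 amplicon in the distal peak, reverse: gccctctccaaacactcttg
Myh7 amplicon in the proximal peak (chr14:55613552-55613628), forward: ccccaccccctggaact
Myh7 amplicon in the proximal peak, reverse: ccagctaggaaacaattggaagtg
Myh7b amplicon (chr2:155432094-155432163), forward: agaagtggctgcctgtgagg
Myh7b amplicon, reverse: agtgggtcccagagggaatg
Control amplicon between genes (chr14:55921902-55921999), forward: gacctgcctgttccttcttg
Control amplicon, reverse: gttacccagcactgcaaagg

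In 450 bp around the control amplicon Sox6 had 0 and 1 reads, Pol II none, and input 8 and 5. Around the 4 amplicons of the members there were 12 to 34 Sox6 reads in replicate 1 and 8 to 31 in replicate 2. The Sox6 ratio to input was lowest at the Myh6 amplicon in replicate 1, 14.7 (7.68 to 29.4), and at the proximal Myh7 amplicon in replicate 2, 18.9 (5.98 to 61.1). The control gave at most 3.30 (0.0698 to 29.5). The study designed the member amplicons on its Sox6 peaks and took as control a place between genes that had none. Both choices go back to these reads, so the contrast is a description only. The control lies on chromosome 14 beyond 50 kb of the members.

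**Figure D5:**
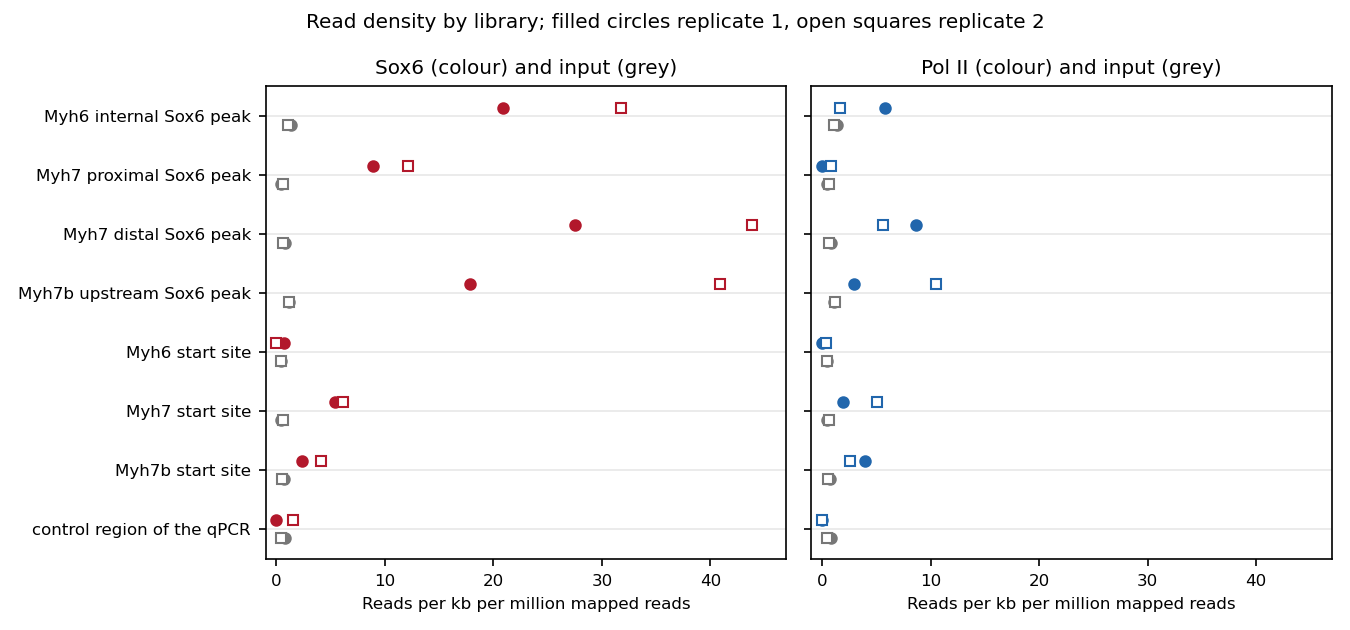
RPKM in each library at the 4 common Sox6 peaks, the 3 start sites and 450 bp around the control amplicon, for Sox6 (left) and Pol II (right), with inputs in grey. Filled circles are replicate 1 and open squares replicate 2. Sox6 stands between 8.93 and 43.9 at the peaks and at 6.12 or below at the start sites, and inputs stay at 1.31 or below.

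The labelled cell type was checked by Pol II over marker genes, against 39.0% of all gene bodies called higher and 24.4% lower. All 8 myotube markers were called higher than input by limma (median log2 ratio 5.12), led by Acta1 and Myog. None of 5 fibroblast, 4 endothelial, 2 tested blood or 3 Schwann cell markers was, and none was higher at an unadjusted p of 0.05 either. Lower than input were 3 of the fibroblast, 3 of the endothelial and 1 of the blood markers. Of 3 smooth muscle markers only Acta2 was higher, a gene that young skeletal muscle also uses, and 1 was lower. Of 6 cardiomyocyte markers only Nppa was higher (2.39 and 2.93 RPKM) and 1, Tbx5, was lower, while Nkx2-5 and Tbx5, cardiac regulators, were at 0 to 0.224 RPKM. Summed over the 6, cardiomyocyte markers had 3.91 and 4.16 RPKM of Pol II against 2.03 and 2.19 RPKM of input, and Nppa alone held 2.39 and 2.93 RPKM of that Pol II. Without Nppa the sum was below input in both replicates, and the median log2 ratio of the 6 was −0.02. Their part in the values of Myh6 was not tested.

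Of 9 other slow fibre genes listed, 7 were called higher than input for Pol II and none lower, against 39.0% and 24.4% of all genes. The median log2 ratio was 2.53 against 0.17 over all genes. The highest were Tnni1 (13.7 and 15 RPKM), slow troponin I, and Tnnt1 (9.60 and 10.3 RPKM), slow troponin T. The lowest were Myl2 (0.364 and 0.0580 RPKM) and Myl3 (0.106 and 0.176 RPKM), the slow and ventricular light chains, below Myh6.

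Of 9 genes of cardiac isoforms, 4 were called higher and 1 lower, near the 39.0% of all genes that were higher (median 0.30). By log2 ratio the highest were Actc1 and Tnnt2. Actc1, cardiac α-actin and also the fetal skeletal actin, was at 100.04 and 98.9 RPKM, and Tnnt2, cardiac troponin T, at 21.7 and 21.1 RPKM. Per kb Myl4, the atrial and fetal light chain, was higher than Tnnt2, at 26.5 and 27.4 RPKM, over a higher input of 1.89 and 2.14 RPKM. At the other end Ryr2, the cardiac calcium release channel, was called lower (0.0962 and 0.0830 RPKM), and Nppb had no Pol II read in either replicate.

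Sox6 over the gene bodies was called higher on 3 of the 10 sarcomeric MyHC genes (Myh3, Myh8 and Myh6), 5 of the 9 slow fibre genes and 1 of the 9 cardiac isoform genes, against 5.37% of all gene bodies. The medians were 0.25, 0.74 and 0.67 on the log2 scale, against 0.20 over all genes. Of the 8 myotube markers 4 were called higher for Sox6, with a median of 0.91. Such calls were thus not particular to MyHC or slow fibre genes. Values of these lists without common peaks, as given for Myh6, were not examined.

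Of 10 genes within 50 kb of the members that were matched to RefSeq and tested, 6 were called higher for Pol II, against 39.0% of all genes. On chromosome 14 Pol II was called higher over Pabpn1 (5.13 and 4.95 RPKM), a poly(A) binding protein gene, and over Slc22a17 and Ngdn, which lie beyond Myh6 and Myh7 on either side. The nearest genes downstream of Myh6, Efs, Il25 and Cmtm5, were not called (adjusted p = 0.606, 0.523 and 0.166 by limma), and neither was Gm10364 upstream of Myh7. On chromosome 2 Acss2, Gss and Trpc4ap were called higher, at 0.835 to 1.4 RPKM across both replicates, each below Myh7b at 2.37 RPKM or more. Sox6 was called on none of these neighbours by limma, beside 5.37% of all gene bodies, with the smallest adjusted p, 0.197, at Cmtm5, and 0 of the 10 passed at an unadjusted p of 0.05.

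By Euclidean distance over the 4 log2 ratios to input (Sox6 and Pol II, both replicates), the genes of like length nearest to Myh7 were Top3b (distance 0.146), Park7 (0.172) and Dpp3 (0.188). Those nearest to Myh7b were Tcf25 (0.0892), Esyt1 (0.133) and Kank2 (0.136), and those nearest to Myh6 were Wdr90 (0.345), Ttyh1 (0.356) and Camkk1 (0.416). Each was picked from 4636 to 4672 candidates, and Myh6 had the most distant ones. None of these 9 is a sarcomere gene, but the share of such genes among the candidates was not counted, so this describes the 9 only.

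Known targets of the hosted microRNAs were also read. Of Sox6, Purb, Sp3, Cbx1, Med13 and Mstn, 5 had more Pol II than input, against 39.0% of all genes (median log2 ratio 1.36). By log2 ratio the highest were Purb (2.31, 8.05 and 3.54 RPKM) and Cbx1 (1.71, 2.07 and 1.91 RPKM). Sox6 itself, 567401 bp long, was at 0.562 and 0.616 RPKM and was not called (log2 ratio −0.08 ± 0.07, limma, adjusted p = 0.39). Sox6 protein was called higher over none of the 6 bodies by limma, which says nothing particular of them beside the 5.37% of all gene bodies. At an unadjusted p of 0.05, 1 passed as higher and 1 as lower. The smallest adjusted p was 0.087, at Sp3, where the log2 ratio was −0.51.

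The longest annotated Sox6 3′ untranslated region, 5574 bases, was searched for the seed matches. It held 1 match to the miR-208 seed (CGTCTTA) and 3 to the miR-499 seed (AGTCTTA). Among 318 genes with a 3′ untranslated region at least that long, the first 5574 bases held CGTCTTA in 6.60% and AGTCTTA in 38.7%. The sites are shown, as DNA, with the match in capitals.

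Sox6 site for miR-208a and miR-208b, position 276: cttatctctgcccatcgcCGTCTTAtg
Sox6 site for miR-499, position 285: gcccatcgccgtcttatgAGTCTTAca
Sox6 site for miR-499, position 598: aatcttaactattttaaaAGTCTTAca
Sox6 site for miR-499, position 620: ttacaggagacactgcaaAGTCTTAga

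The miR-208 site and the first miR-499 site started 9 bases apart. A match is a description of letters and not a measurement of repression.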

How the data were processed

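The authors fixed primary myotubes with disuccinimidyl glutarate and formaldehyde, made libraries by 18 cycles of PCR and selected 300 to 600 bp fragments. Per the methods, single-end reads were aligned with Bowtie (0.12.5) to NCBI Build 37, uniquely mapped reads were kept, and SISSRs called peaks against input with a fragment length of 450 bp. The deposited files hold read positions and peak positions, and the score column of the deposited Pol II peak files was not used. The coordinates were counted here as reads per region: GENCODE M1 genes matched to RefSeq names (22921, of which 2441 by synonym), taken at their longest model.

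The main test was limma 3.58.1 (R 4.3.3) with a trend on log2 RPM after adding 0.5 reads, over all features with 10 reads or more in the 4 libraries compared, without a block, with Benjamini-Hochberg adjustment and a threshold of 0.05. On simulated start windows of Sox6, 33% of features changed 4-fold and 100% of those changed 16-fold were recovered (17875 features). Unchanged start windows had a simulated median log2 ratio of 0.346, because the same addition weighs more in the shallower ChIP libraries. The 2 replicates are 2 ChIP experiments, and whether the cells were separate cultures is not given in the sources used here. The p-values therefore measure spread between libraries, which limma shares over features of like read level. At start sites, common peaks and hairpins this shared spread set the SE almost alone. It does not show how well a member's own 2 libraries agreed there. Pol II at the Myh7b peak, with 2 and 13 reads, had an SE of 0.57, and at the distal Myh7 peak, with 6 and 7 reads, 0.61. An exact permutation test of 2 against 2 could not go below 1 in 3 and was not run.

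The text names the members, their neighbours and peaks within 50 kb, the PCR amplicons, the other sarcomeric MyHC genes, Actb, the 2 highest and 2 lowest genes by log2 ratio of Pol II to input of the slow fibre, cardiac isoform and microRNA target lists, and the 3 genes most like each member; markers and other list members named were chosen after their values were seen. Members, lists and tests were chosen with earlier results of these data known. Motif letters, primers and 36-base words were matched exactly (Python 3.11.15). Alternatives changed the scaling, the addition, the filter, the counting of repeated positions, read positions, windows, the replicate block and the libraries kept.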

Additional observations from a re-analysis of the deposited data

How the results depend on the processing

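Of 342 alternatives over 28 log2 ratios, 302 kept the side of the threshold, 24 lost a call, 15 gained one and 1 gained one with the opposite sign. Of the 302, 291 also kept their direction. Of 12 changes of sign, 1 ended past the threshold, for Pol II at the Myh6 start site when 2 reads were added (1.19), an addition that weighs more in the shallower ChIP libraries. The other 11 were not called before or after. They were Sox6 at the Myh6 start with an addition equal in RPM (−0.40) or without Sox6 replicate 1 (−0.42), Pol II there when scaled to reads outside peaks (0.38), without PolII replicate 1 (0.26) or with 1000 bp to either side (0.22), Pol II over Myh6 without common peaks (−0.47), Pol II at miR-208a with 2 reads added (0.50), Sox6 at miR-208b with 2 reads added (1.27), reads moved by 75 bp (0.29) or without Sox6 replicate 1 (0.07), and Pol II at the proximal Myh7 peak with an addition equal in RPM (−0.24). The cause of the other changes was not tested. Adding 2 reads also gave Sox6 values of 1.38 at the Myh6 start, 0.65 over Myh7b, 1.47 at miR-208a and 1.66 at miR-499, and Pol II values of 1.89 at miR-499 and 1.90 at the proximal Myh7 peak, all called. An addition equal in RPM left Sox6 at 1.14 over Myh6, 2.80 at the Myh7 start and 1.83 at the Myh7b start, and Pol II at 0.96 in the space and 1.01 at the Myh6 peak, none called, and Pol II at miR-208a at −1.51, called. Scaling to reads outside peaks moved the median gene by 0.49 for Pol II and 0.07 for Sox6, and called Pol II over Myh6 (0.66) and Sox6 over Myh7b (0.67). No filter called Sox6 over Myh7b (0.61). Pol II was not called in the space with repeated positions counted once (0.98) or without 500 bp at each end (1.29), at the Myh6 peak with repeated positions counted once (1.37) or reads moved by 75 bp (1.48), or at miR-208b with 250 bp to either side (1.88). An alternative chosen after seeing the data, gene bodies without 1 kb to either side of common peaks, left Sox6 over Myh6 at 0.24.

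With the replicate number as a replicate block, Sox6 over Myh7b was called (0.61) and Pol II was not called in the space (1.16) or at the Myh6 peak (1.53), and no other call changed. Over features, the difference between ChIP replicates and that between inputs had r from −0.0593 to 0.0503. Counting error in features of few reads could hide a shared deviation, so these values cannot decide whether equal numbers are pairs. Per the methods, each ChIP experiment had its own input as background in peak calling. The main fit took no pairs.

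Leaving out 1 library at a time, Sox6 ranged from 3.23 to 3.65 at the Myh7 start, 1.96 to 2.78 at the Myh7b start, 0.51 to 0.70 over Myh7b and 0.28 to 1.30 in the space. Pol II ranged from 1.05 to 1.26 in the space, −1.78 to −0.94 at miR-208a, 0.69 to 2.38 at the Myh6 peak, 1.59 to 3.18 at the Myh7b peak, 2.04 to 3.25 at the Myh7 start and 2.27 to 3.60 at miR-208b. Sox6 at the Myh7b peak ranged from 3.93 without Sox6 replicate 2 to 5.12 without Sox6 replicate 1. With 1 library left in a group, that library is assumed to vary like the other group.

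Counts of features higher than input over the whole tables varied more. Sox6 start sites numbered 418, with 0 under an addition equal in RPM and 10371 with 2 reads added. Sox6 gene bodies numbered 1123, with 0 to 7591, spaces 11, with 0 to 1486, and hairpins 46, with 1 to 687. Pol II gene bodies numbered 8161, with 6975 to 10202, start sites 8818, with 6711 to 15571, common peaks 623, with 293 to 947, spaces 1553, with 1073 to 2020, and hairpins 260, with 220 to 744. Pol II gene bodies lower than input numbered 5096, and 2829 when scaled to reads outside peaks. Within 20 kb rather than 50 kb, Pol II replicate 2 had 6 peaks rather than 11. Reads in Pol II peaks alone gave means of 0.0147 RPKM for Myh6 and 0.0297 RPKM for Myh7b.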
